A study of Homo sapiens with 4 samples.

Results

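The genes described here mark the mesenchymal state of neuroblastoma cells or encode the matrix that such cells build. They were PRRX1, FN1, COL3A1, COL5A2, SPARC, WWTR1, CCN1 (formerly CYR61), PDGFRA, VCAN and LOX, all on chromosomes 1 to 5. A gene was taken where a row of the deposited table carried its symbol and no other, which gave 9 of the 10 listed genes, with 1 feature each, among 13493 features in all. COL3A1 shared its feature with the microRNA gene MIR3606 and so has no value of its own here. RNA came from SK-N-SH, an established adherent human neuroblastoma line, exposed for 24 h to TCDD, a dioxin, at 1e-10 M (2 arrays) or to the solvent, dimethyl sulfoxide (DMSO), alone (2 arrays). The solvent was at 0.1% or lower in all treatments, and the labels name no other agent. The titles number the 2 arrays of each group as biological replicates without naming separate cultures. The p-values therefore rest on the spread between these arrays, which the test pooled in part over all features. TCDD is a ligand of the aryl hydrocarbon receptor (AhR), a transcription factor, and the comparison asks which transcripts differ after this low concentration.

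Neuroblastoma cells occur in a noradrenergic state, which resembles sympathetic neuroblasts, and in a mesenchymal state, which resembles migratory neural crest and fibroblast-like cells. PRRX1 is a homeobox factor of the mesenchymal state, and WWTR1 encodes TAZ, a Hippo-pathway coactivator that works through TEAD factors on targets such as CCN1. Fibronectin (FN1), collagens (COL5A2, COL3A1), SPARC and versican (VCAN) are secreted into the matrix, LOX cross-links collagen and elastin there, and PDGFRA is a growth factor receptor of mesenchymal cells. SK-N-SH is known to hold both neuroblast-like and substrate-adherent cells. In such bulk RNA, more cells of a type and more RNA per cell cannot be told apart.

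Values are log2 signals as the authors deposited them, and each change is given as TCDD minus DMSO, a difference of group means on that scale. Each feature was tested with limma over all 13493 features and called at a Benjamini-Hochberg adjusted p under 0.05. Median signals of the arrays lay between 8.19 and 8.22. The interquartile range of signals was 2.21 and 2.20 on the TCDD arrays, against 2.13 and 2.00 on the DMSO arrays. A feature with a mean under 8.38, below which 95% of 71 olfactory receptor features lay, is described as being at the olfactory receptor level. The noradrenergic markers GATA2, HAND2 and ISL1 read between 11.31 and 11.59 on every array, and 0 of these 3 passed the test (0 also at an unadjusted limma p under 0.05). Their changes were 0.10, 0.091 and -0.034, of the size of several changes below. Without DMSO replicate 1, HAND2 was called (0.17), and 2 of the 3 had an unadjusted limma p under 0.05. After cyclic loess normalization 0 of the 3 were above 0, against 2 under quantile normalization. Under each, 1 of the 3 had an unadjusted limma p under 0.05. The 4 measured immune markers, the endothelial marker KDR and the epithelial marker EPCAM lay at the olfactory receptor level, as did 1 of 2 Schwann markers. Of these 8 markers of other cells 1 was called, the Fc receptor gene FCGR3A, which fell by 0.29 (SE 0.056, limma adjusted p = 0.025) but was not called without TCDD replicate 1 (-0.27), TCDD replicate 2 (-0.31) or DMSO replicate 2 (-0.25). At an unadjusted limma p under 0.05, 4 of the 8 passed, all lower in TCDD: FCGR3A, the T-cell gene CD2 (-0.18) and both Schwann markers, FOXD3 (-0.19) and GFRA3 (-0.14). That threshold was passed by 5332 of all 13493 features, and by 39 of the 71 olfactory receptor features. The median change of these 71 was -0.19, with 22 called lower and 1 called higher. What part the markers of other cells had in the results below was not tested.

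One of the 9 genes passed the test. PRRX1 rose with TCDD, and the other 8 genes had changes from -0.056 to 0.14 with limma adjusted p-values from 0.102 to 0.433. Over all features 17.4% were called in either direction and 9.41% were called higher, and among protein-coding features with 1 symbol 7.25% were called higher. The 1 gene of 9 called higher is near these shares. At an unadjusted limma p under 0.05, 4 of the 9 passed, against 1895 of 5229 protein-coding features.

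PRRX1 read 9.43 and 9.47 on the TCDD arrays, against 9.18 and 9.20 on the DMSO arrays. Both TCDD arrays lay above both DMSO arrays, and the gap of 0.23 between the groups was larger than either replicate gap (0.043 in TCDD, 0.019 in DMSO). The means were 9.45 ± 0.031 in TCDD and 9.19 ± 0.013 in DMSO (SD, n = 2 arrays each). The rise was 0.26 (SE 0.051, limma adjusted p = 0.026), or 1.20-fold, with 95% bounds of 1.10 and 1.30. Quantile normalization gave a difference of 0.16 (limma adjusted p = 0.087), cyclic loess normalization gave 0.17 (limma adjusted p = 0.083), and it passed under neither. Adjusted over protein-coding features alone, a setting chosen after seeing the data, its p was 0.072 (limma). It also missed the threshold without DMSO replicate 2 (0.27, limma adjusted p = 0.061), TCDD replicate 1 (0.28, limma adjusted p = 0.120) or TCDD replicate 2 (0.24, limma adjusted p = 0.187).

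**Figure D1:**
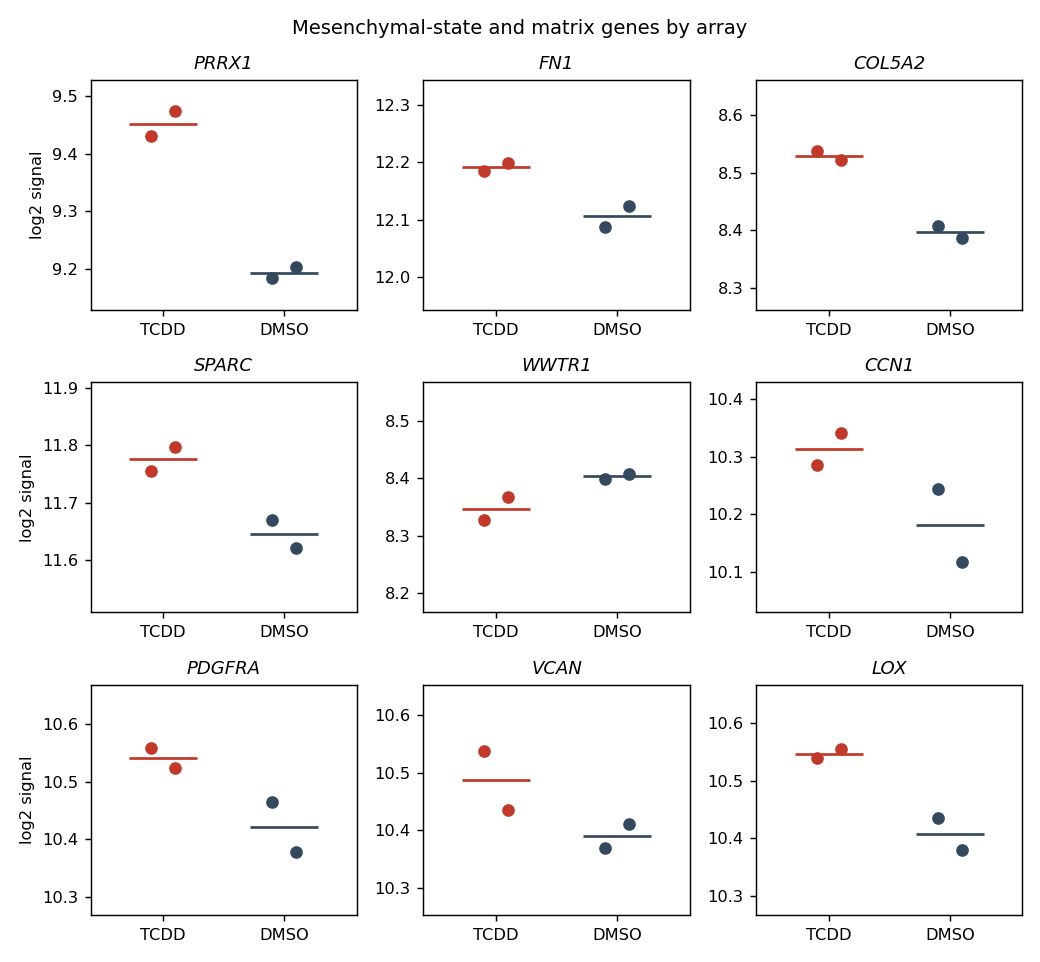
Log2 signal of the 9 genes on each array (points, in replicate order from left to right within a group), with TCDD left of DMSO in each panel and group means as horizontal lines; every panel spans 0.4 log2 units. PRRX1 shows the widest gap between groups, and WWTR1 is the one gene lower on both TCDD arrays.

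The promoter of PRRX1 is shown because PRRX1 is the gene that was called. Promoter windows of 300 bases, 250 before to 50 after an annotated start, came from RefSeq on GRCh38.p14, and 7 of the 10 listed genes had 11 windows there. COL3A1, COL5A2 and CCN1 were not matched. The PRRX1 window lies at chr1:170663881-170664180 on the plus strand.
PRRX1: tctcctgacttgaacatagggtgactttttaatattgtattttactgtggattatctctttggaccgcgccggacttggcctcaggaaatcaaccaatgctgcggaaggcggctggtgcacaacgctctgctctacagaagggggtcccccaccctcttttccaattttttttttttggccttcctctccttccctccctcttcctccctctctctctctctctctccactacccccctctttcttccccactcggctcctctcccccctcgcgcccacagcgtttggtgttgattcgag
Windows were searched on both strands for GCGTG, the core of the AhR site, and for GGAATG, the core of the TEAD site. The PRRX1 window held neither, so it has no capitals. Of all 35116 windows, 36.5% held GCGTG and 14% held GGAATG on either strand. Among the listed genes, GCGTG was found in windows of WWTR1 and LOX, and GGAATG in the window of SPARC, each on the opposite strand from the gene. The other window of WWTR1 and the most upstream window of LOX held neither. These matches are shown with their flanks, the match in capitals as it reads along the gene, from chr3:149658175-149658215, chr5:122077215-122077255 and chr5:151686909-151686950, all minus-strand genes.
WWTR1: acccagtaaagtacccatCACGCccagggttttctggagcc
LOX: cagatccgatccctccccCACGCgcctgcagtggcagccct
SPARC: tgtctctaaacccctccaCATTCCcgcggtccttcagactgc
The WWTR1 match began 172 bases before its start and the SPARC match 17 bases before. The LOX match lay in 2 overlapping windows, 14 and 63 bases before their starts. These windows, chr5:122077125-122077424 and chr5:122077174-122077473, lie downstream of the most upstream LOX window, chr5:122078210-122078509. The windows of FN1, PDGFRA and VCAN held neither motif. A match is a run of letters and does not show binding.

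WWTR1, the TAZ gene, was the one gene of the 9 with lower signal on both TCDD arrays. It read 8.33 and 8.37 in TCDD, against 8.40 and 8.41 in DMSO, which put its mean of 8.37 at the olfactory receptor level. The change was -0.056 (SE 0.051, limma adjusted p = 0.433) and its 95% interval -0.18 to 0.067. It was -0.050 under quantile normalization and -0.061 after cyclic loess, and ran from -0.076 without TCDD replicate 2 to -0.036 without TCDD replicate 1.

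CCN1, a secreted matricellular protein and a well-known target of TAZ and its relative YAP, did not pass. It read 10.29 and 10.34 in TCDD, against 10.24 and 10.12 in DMSO. The groups did not overlap, but the DMSO arrays lay 0.13 apart, the widest replicate gap among the 9 genes. The change was 0.13 (SE 0.063, limma adjusted p = 0.168) and its 95% interval -0.020 to 0.28. Without DMSO replicate 1 it was 0.20, and without DMSO replicate 2 it was 0.069.

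The structural matrix genes all had higher means in TCDD, and none was called. COL5A2, a chain of type V collagen, which controls the diameter of fibrils of other collagens, read 8.54 and 8.52 in TCDD, against 8.41 and 8.39 in DMSO. Replicates differed by 0.014 in TCDD and 0.022 in DMSO, and the groups lay 0.11 apart. The change was 0.13 (SE 0.050, limma adjusted p = 0.104) and its 95% interval 0.012 to 0.25. COL5A2 and COL3A1 are neighbours on chromosome 2, with 0 protein-coding genes between them in RefSeq.

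Fibronectin joins cells to matrix through integrins. FN1 read 12.18 and 12.20 in TCDD, against 12.09 and 12.12 in DMSO, without overlap. The change was 0.086 (SE 0.051, limma adjusted p = 0.246) and its 95% interval -0.037 to 0.21. SPARC, a collagen-binding glycoprotein, read 11.76 and 11.80 in TCDD, against 11.67 and 11.62 in DMSO, again without overlap. Its change was 0.13 (SE 0.053, limma adjusted p = 0.121) and its 95% interval 0.0032 to 0.26. Versican is a large chondroitin sulfate proteoglycan that makes the matrix of migrating cells less adhesive. VCAN read 10.54 and 10.44 in TCDD, against 10.37 and 10.41 in DMSO. Its TCDD arrays lay 0.10 apart, about as far as the groups differed. Its change was 0.097 (SE 0.058, limma adjusted p = 0.253) and its 95% interval -0.044 to 0.24. Without TCDD replicate 1 the change of VCAN was 0.046.

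LOX, the lysyl oxidase that cross-links collagen and elastin, read 10.54 and 10.55 in TCDD, against 10.44 and 10.38 in DMSO. The groups lay 0.10 apart, further than the replicates of either group. The change was 0.14 (SE 0.052, limma adjusted p = 0.102) and its 95% interval 0.014 to 0.27. Without DMSO replicate 1 the change was 0.17 and just passed (limma adjusted p = 0.048). The receptor gene PDGFRA read 10.56 and 10.52 in TCDD, against 10.46 and 10.38 in DMSO. Its groups did not overlap, and its change of 0.12 (SE 0.056, limma adjusted p = 0.162) had 95% bounds of -0.016 and 0.25. Without DMSO replicate 2 the change of PDGFRA was 0.077.

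As a group, 8 of the 9 genes had higher means in TCDD, and the median change was 0.13. Over all features the median was 0.023, and 54.8% of features were higher in TCDD. The groups did not overlap for any of the 9 genes, where 71.7% of all features did not overlap. The share was 76.9% among protein-coding features with 1 symbol, and 79.4% among those above the olfactory receptor level. TCDD replicate 2 gave the highest signal for 5 of the 9 genes and DMSO replicate 2 the lowest for 5. All 9 genes were read from the same 4 hybridisations, so their values are not independent of each other.

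Among protein-coding features with 1 symbol, the direction of change differed between bright and dim features. Of 3559 protein-coding features above the olfactory receptor level, 2927 (82.2%) were higher in TCDD, with a median change of 0.11. Of 1670 at or under that level, 546 (32.7%) were higher, with a median change of -0.053. The first class held 8 of the 9 genes, with means from 8.46 to 12.15, and the second held WWTR1.

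**Figure D2:**
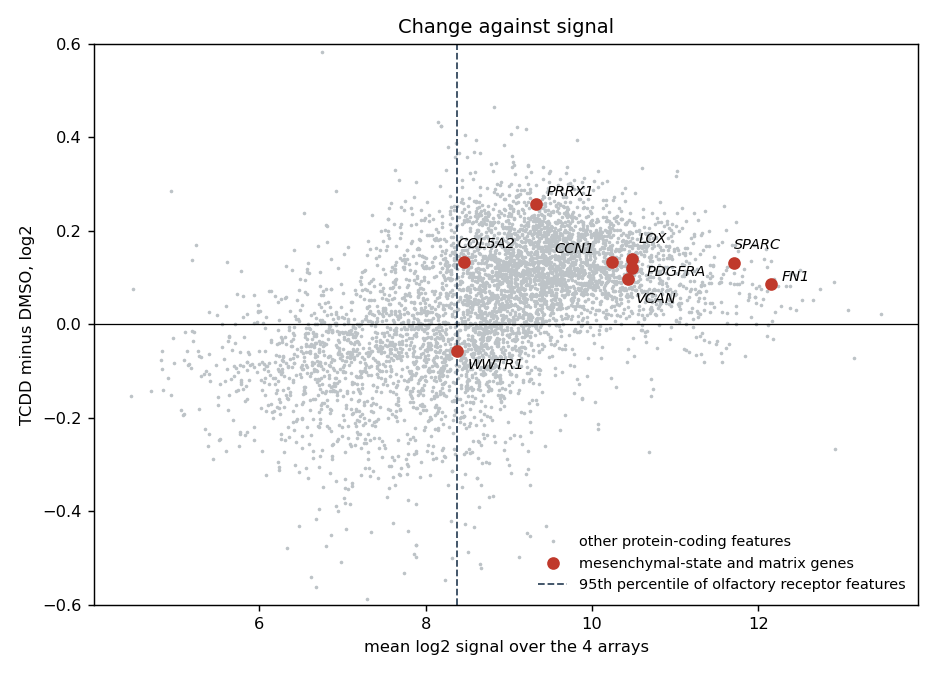
TCDD minus DMSO change (log2) against mean log2 signal over the 4 arrays for 5229 protein-coding features, with the 9 genes as large named points; 7 features lie outside the axis limits of ±0.6. Of the 9 genes, 8 lie right of the dashed olfactory receptor level and above 0, and PRRX1 is the highest of them.

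After quantile or cyclic loess normalization, most of the shift in these genes was gone. The median change of the 9 genes was 0.0024 under quantile normalization and 0.0064 after cyclic loess, 6 of 9 were above 0 under each, and 0 were called by limma, with 2 at an unadjusted p under 0.05 each time. After cyclic loess the change was 0.0011 in FN1, 0.0064 in CCN1, 0.013 in LOX and 0.032 in SPARC. PDGFRA and VCAN turned to -0.022 and -0.032 under quantile normalization, and to -0.0068 and -0.030 after cyclic loess. The groups then did not overlap for 3 genes under quantile normalization and 4 after cyclic loess, where 67.4% and 67.8% of all features did not overlap.

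After both normalizations the 2 largest changes among the 9 genes were those of PRRX1 and COL5A2. The difference of COL5A2 was 0.13 as deposited (limma adjusted p = 0.104). For COL5A2, quantile normalization gave 0.13 (limma adjusted p = 0.086), cyclic loess gave 0.12 (limma adjusted p = 0.091), and the 95% interval lay above 0 each time. After cyclic loess it read 8.53 and 8.52 in TCDD, against 8.41 and 8.40 in DMSO. PRRX1 then read 9.38 and 9.43 in TCDD, against 9.20 and 9.28 in DMSO. Whether the changes of these genes differ from those of the other members was not tested.

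**Figure D3:**
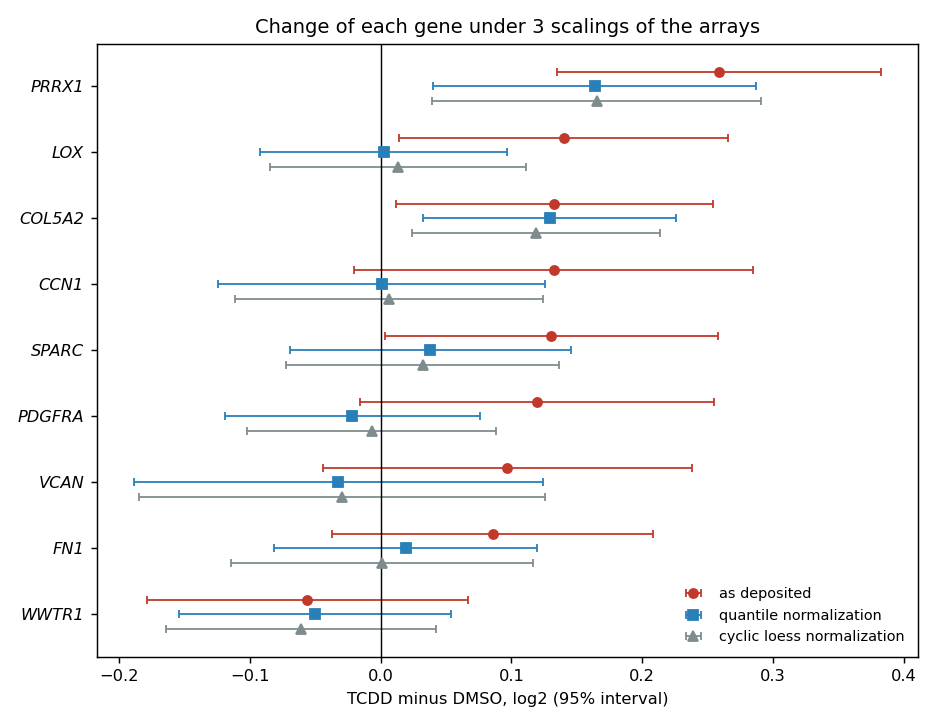
TCDD minus DMSO change (log2) with its 95% limma interval for each of the 9 genes, from the deposited values and after 2 further normalizations between arrays. The points of PRRX1, LOX, CCN1, SPARC, PDGFRA, VCAN and FN1 move towards or across 0. Those of COL5A2 and WWTR1 stay near their first position.

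Related genes were grouped by role, with 1 feature per gene and the 9 genes above left out. Of 31 listed mesenchymal-state factors 6 were measured. Of these 5 had higher means in TCDD, 2 were called higher and 0 lower, and the median change was 0.16. TGFBR2, a receptor for TGF-beta, read 8.61 on both TCDD arrays, against 8.38 and 8.39 on the DMSO arrays, and rose by 0.22 (SE 0.049, limma adjusted p = 0.034). The receptor gene NOTCH2 rose by 0.22, and TWIST2, a mesenchymal helix-loop-helix factor, did not pass (change -0.20, limma adjusted p = 0.063). Of 14 further collagen genes 8 had higher means in TCDD, 0 were called higher and 1 lower, and the median change was 0.014. The 1 called lower was COL8A1, a short-chain collagen (change -0.32, SE 0.070, limma adjusted p = 0.033). It read 6.64 and 6.74 in TCDD, against 6.94 and 7.08 in DMSO, all at the olfactory receptor level. The 71 olfactory receptor features themselves had a median change of -0.19, with 22 called lower and 1 called higher. COL8A2 (-0.12) and COL11A1 (0.096) did not pass.

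Of 55 listed matrix glycoproteins and proteoglycans 31 were measured. Of these 20 had higher means in TCDD, 3 were called higher and 3 lower, and the median change was 0.062. FMOD, a collagen-binding small proteoglycan, read 8.26 and 8.27 in TCDD, against 8.55 and 8.67 in DMSO, and fell by 0.35 (SE 0.060, limma adjusted p = 0.019). The secreted glycoprotein ECM1 fell by 0.24 and FBLN2, a fibulin of basement membranes, rose by 0.23. The other 3 called, named after their values were seen, were MATN3 (0.23), NID1 (0.20) and SPARCL1 (-0.22), a relative of SPARC, and of these MATN3 and SPARCL1 lay at the olfactory receptor level. Of 33 listed genes of collagen processing and cross-linking 15 were measured. Of these 14 had higher means in TCDD, and the median change was 0.10. The procollagen N-proteinases ADAMTS3 (0.23) and ADAMTS2 (0.21) were called higher, and 0 genes were called lower. CRTAP, a partner of prolyl 3-hydroxylase, had 0.20 (limma adjusted p = 0.0504).

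Of 38 listed YAP and TAZ pathway genes and targets 15 were measured. Of these 12 had higher means in TCDD, 3 were called higher and 0 lower, and the median change was 0.084. The 3 called were CCDC80 (0.26), CRIM1 (0.21) and the phosphatase PTPN14 (0.19), which binds YAP. The list mixes pathway components with targets, so its counts and median give no direction of pathway activity. The PDGF list held 5 measured genes, PDGFRB, PDGFC and the receptor genes KDR, FLT4 and KIT, which are not PDGF receptors. Of these 3 had higher means in TCDD. PDGFRB, the sister receptor of PDGFRA, was the 1 called higher, and 0 were called lower. It read 10.25 and 10.29 in TCDD, against 10.02 and 9.99 in DMSO (change 0.27, SE 0.052, limma adjusted p = 0.025), and did not pass after cyclic loess (0.14). PDGFC, a ligand gene at the olfactory receptor level, had 0.16 as deposited and passed after cyclic loess (0.19, limma adjusted p = 0.038), and KDR had -0.072.

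Across these lists 15 of 86 measured genes were called, which is 17.4%, the same share as over all features. Among the 5229 protein-coding features with 1 symbol, 379 were called higher and 200 lower, which is a smaller share. Whether the lists differ from these features was not tested. The list medians depended on the scaling. For the mesenchymal-state factors the median was 0.084 under quantile normalization and 0.075 after cyclic loess, with TGFBR2 alone called each time. For the matrix glycoproteins and proteoglycans it was 0.013 and -0.0027, with 0 higher and 2 lower called under quantile normalization and 1 higher and 3 lower after cyclic loess. For the YAP and TAZ genes it was 0.053 and 0.051, with 0 called by limma and 4 at an unadjusted p under 0.05 each time, and it was 0.036 without DMSO replicate 2. For collagen processing and cross-linking it was 0.075 and 0.068, and for the further collagens -4.7e-04 and -0.0067.

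Of the 15, 5 were still called after cyclic loess (TGFBR2, FMOD, ECM1, MATN3 and COL8A1) and 3 under quantile normalization (TGFBR2, FMOD and ECM1). Among calls lost under both, the change of ADAMTS3 stayed at 0.22 under quantile normalization and 0.20 after cyclic loess (limma adjusted p = 0.065 and 0.053). It was 0.065 and 0.074 in NID1, 0.077 and 0.086 in CRIM1, and 0.083 and 0.091 in ADAMTS2. NOTCH2 had 0.095 and 0.098, PTPN14 0.077 and 0.087, and PDGFRB 0.13 and 0.14. Without DMSO replicate 2, 0 of the 15 were called by limma and 15 had an unadjusted p under 0.05, with FMOD at -0.29, TGFBR2 at 0.22, NOTCH2 at 0.17 and PDGFRB at 0.25. FMOD was called without TCDD replicate 1 (-0.34), and FMOD (-0.35) and COL8A1 (-0.37) without TCDD replicate 2, as the only ones of the 15. Without DMSO replicate 1 all 15 were called, and 0 were called by limma when p-values were adjusted over protein-coding features alone (15 at an unadjusted p under 0.05).

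**Figure D4:**
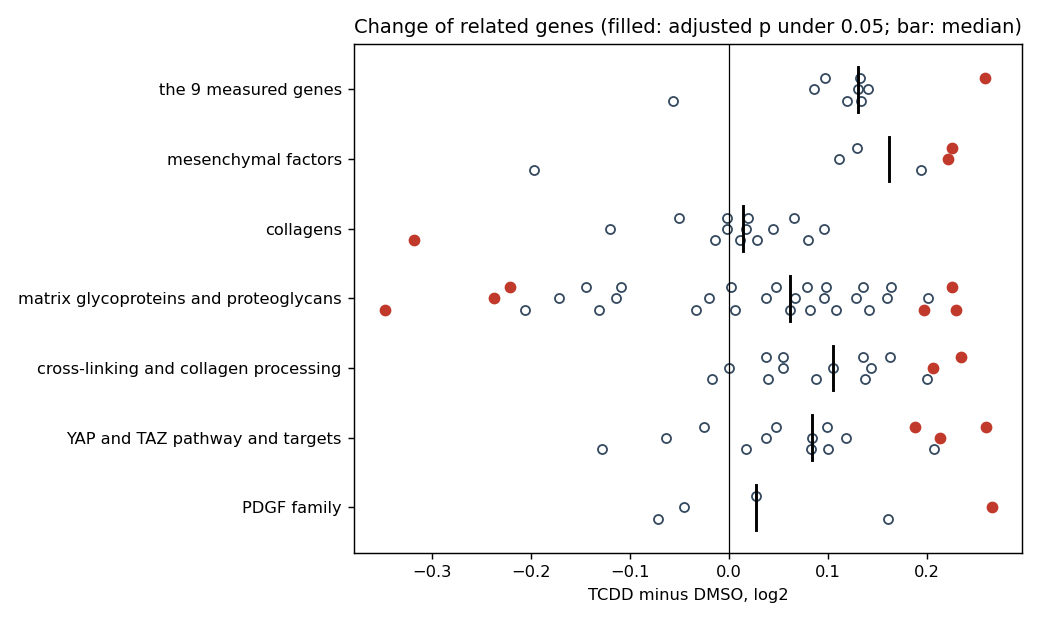
TCDD minus DMSO change (log2) of the 9 genes and of 6 lists of related genes, 1 point per gene, filled where the limma adjusted p was under 0.05, with a black bar at each median. Medians run from 0.014 for the 14 collagens to 0.16 for the 6 mesenchymal-state factors, and the falls that were called are in the collagen and glycoprotein lists.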

How the data were processed

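Total RNA was labelled with the GeneChip WT PLUS kit and hybridised to the Affymetrix Human Transcriptome Array, per the labels. The deposited values are log2 signals per feature, made by the authors with RMA, per the submitters' processing notes, with version and settings not given in the sources used here. They were used as deposited. Gene names came from the platform annotation, updated through RefSeq names (5930 features by Entrez identifier, 618 by current symbol, 97 by synonym, 2 kept as given). Of 13493 features, all on chromosomes 1 to 5, 6647 had 1 symbol, 341 several and 6505 none here, and features of other chromosomes were not analysed here.

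TCDD was set against DMSO with limma 3.58.1 in R 4.3.3 (lmFit and eBayes, two-sided, no block, 2 residual and 4.27 prior degrees of freedom), with Benjamini-Hochberg adjustment over all features. The members and the lists of related genes were chosen with earlier results of these data known. Every member is named, and, unless said otherwise, from each related list up to 3 genes with the smallest p. In lists a gene was represented by its brightest feature. The limma functions were tested on simulated arrays. Equal replicate numbers gave a correlation of deviations of 0.037 between groups, and no label pairs the arrays. Only 2 arrays per group limit the precision.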

Additional observations from a re-analysis of the deposited data

How the results depend on the processing

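The count of called members, 1 of 9 from the deposited values, ran from 0 to 3 as arrays were left out, and was 0 without TCDD replicate 1, TCDD replicate 2 or DMSO replicate 2 and 3 without DMSO replicate 1 (PRRX1, LOX and CCN1). In the first 3 of these fits 1, 1 and 2 members had an unadjusted limma p under 0.05. The count was 0 under quantile and under cyclic loess normalization. The median change of the members, 0.13 as deposited, was 0.0024 under quantile normalization and 0.0064 after cyclic loess. Under these, PDGFRA (-0.022 and -0.0068) and VCAN (-0.032 and -0.030) changed sign, both without passing as deposited. Chosen after seeing the data, a fit of protein-coding features alone called 3 members (PRRX1, LOX and COL5A2) and 1771 features, while adjusting the same p-values over protein-coding features alone called 0 members and 2 features.

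The count of 2351 called features was 1478 under quantile normalization (757 higher, 721 lower) and ran from 644 to 4661 as arrays were left out. With the replicate block it was 3634, and PRRX1 was again the 1 member called (limma adjusted p = 0.0061). That fit gave all genes described here the same SE (0.078), so its p-values ranked them by size of change alone. The replicate number is not known to pair the arrays, so this fit adds no evidence on the size of the effect. Averaging by symbol, array weights, median centring, a prior that is trended and robust, and leaving out the dimmest 25% of features each called PRRX1 alone among the members. Leaving out an array leaves 1 array in a group, which is then assumed to vary like the other group. Without TCDD replicate 1 or TCDD replicate 2, all genes described here also had the same SE (0.115). Calls in these fits, as of FMOD and COL8A1, therefore follow size of change and not the spread of each gene. The causes of these shifts were not tested.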
